A study of Mus musculus with 2 samples.

Results

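A set of 10 genes of the endoplasmic reticulum (ER) stress response and the integrated stress response were followed through single-nucleus RNA-seq (snRNA-seq) of mouse livers with metabolic dysfunction–associated steatohepatitis (MASH). The genes, *Xbp1*, *Hspa5*, *Herpud1*, *Creb3l3*, *Atf4*, *Ddit3*, *Trib3*, *Asns*, *Chac1* and *Fgf21*, were taken by their symbols and occupy 11 of the 32285 rows of the count matrices. *Ddit3* has a second row, for an overlapping gene model, which held 0 UMIs in both libraries, so its values are those of the other row. Livers came from male C57BL6/J mice that received a MASH diet from an age of 10 to 12 weeks and for 5 months, with 40% of the energy from fat, 20% from fructose, and 2% cholesterol. One library was labelled Flox (genotype *Themis* flox/flox, although its title reads WT). The other was labelled HKO (*Themis* Alb-Cre), which the paper describes as a hepatocyte-specific knockout. Tissue of several mice was pooled for each library, nuclei were sorted by flow cytometry, and the animals of a pool cannot be told apart. With 1 library per group no test between the groups was possible, and every interval below is at the 95% level and covers counting error only.

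Proteins that enter the secretory pathway are folded in the ER by chaperones, of which BiP, the product of *Hspa5*, is the best known. When unfolded proteins build up, the sensors IRE1, PERK and ATF6 start the unfolded protein response: IRE1 splices *Xbp1* mRNA into the form that encodes an active transcription factor, ATF6 is cut to release another, and PERK phosphorylates eIF2α. Phosphorylated eIF2α, which is also the endpoint of kinases that sense amino acid shortage, viral RNA and heme deficiency, lowers general translation while *Atf4* mRNA is translated more. This branch is the integrated stress response. Hepatocytes secrete most plasma proteins, and the liver carries in addition CREBH, encoded by *Creb3l3*, an ER-bound factor that acts on lipid metabolism genes. Splicing of *Xbp1*, cleavage of ATF6 and CREBH, and phosphorylation of eIF2α cannot be read from 3′ counts, so the values below are transcript levels and not the activity of a branch.

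The library labelled Flox held 9363 barcodes with a median of 6216 UMIs, and the library labelled HKO held 10748 with a median of 2227.5 UMIs. After nuclei with few genes and likely doublets were left out, 5852 of 8659 nuclei were told as hepatocytes in the library labelled Flox and 4455 of 9801 in the one labelled HKO. Their median depths were 7435 and 5801 UMIs. Cell types were told by marker UMIs, and all markers of each type were detected in its own nuclei in both libraries. Hepatocyte markers were present in the nuclei of all other types at 12.4% or more of their level in hepatocytes. The libraries shared 27 barcodes. *Themis*, the gene to be deleted, had 163 CPM (the gene's share of all UMIs of the summed nuclei, scaled to 1000000) in hepatocytes of the library labelled Flox and 244.9 CPM in the one labelled HKO, with an interval of the ratio from 1.45 to 1.55. The level thus went against the HKO label, although 3′ counts need not show the loss of an exon, and groups are named below by the labels of their libraries.

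In hepatocytes, the chaperone gene *Hspa5* and the transcription factor gene *Xbp1* were lower in the library labelled HKO, while the ER degradation gene *Herpud1* had nearly the same level in both. *Hspa5* had 345.8 CPM (340.5 to 351.3) in the library labelled Flox and 183.6 CPM (178.6 to 188.8) in the one labelled HKO, a ratio of 0.531 (0.514 to 0.548). *Xbp1* had 243.1 CPM (238.6 to 247.6) and 141.8 CPM (137.4 to 146.4), which gave a ratio of 0.583 (0.562 to 0.605). Neither pair of intervals overlapped. At this depth counting intervals are narrow, and even the interval of the *Herpud1* ratio below left out 1. No share of all genes without overlap is given. *Herpud1*, which encodes a membrane protein of the ER degradation complex, had 421.0 CPM and 434.0 CPM, a ratio of 1.03 (1.01 to 1.05). *Creb3l3* had 462.2 CPM and 321.7 CPM, a ratio of 0.696 (0.679 to 0.714), so it was lower in the library labelled HKO without reaching a 1.5-fold difference.

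Of the genes of the integrated stress response, *Atf4*, *Trib3* and *Fgf21* were higher in hepatocytes of the library labelled HKO, *Chac1* and the nearly absent *Asns* were lower, and *Ddit3* did not differ beyond counting error. *Atf4*, the transcription factor at the center of this response, had 173.4 CPM (169.6 to 177.2) in the library labelled Flox and 212.2 CPM (206.8 to 217.7) in the one labelled HKO, a ratio of 1.22 (1.18 to 1.27). *Ddit3*, which encodes the proapoptotic factor CHOP, had 38.0 and 40.1 CPM, and the interval of its ratio of 1.06 (0.978 to 1.14) held 1. *Trib3*, a pseudokinase gene downstream of ATF4 and CHOP, was rare, with 212 and 229 UMIs, and had 4.60 and 8.39 CPM, a ratio of 1.82 (1.51 to 2.21). It was thus the member with the highest ratio between the libraries. *Chac1*, which encodes a glutathione-degrading enzyme, went the other way, with 7.40 and 5.50 CPM and a ratio of 0.743 (0.609 to 0.903). *Fgf21*, a hormone gene that hepatocytes express under nutrient and ER stress, had 27.2 CPM (25.7 to 28.8) and 34.9 CPM (32.7 to 37.2), which gave a ratio of 1.28 (1.18 to 1.40). *Asns*, encoding asparagine synthetase, was nearly absent, with 18 UMIs in the library labelled Flox and 1 UMI in the one labelled HKO. Its ratio of 0.0938 (0.00225 to 0.594) rests on too few UMIs to enter any count below.

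**Figure D1:**
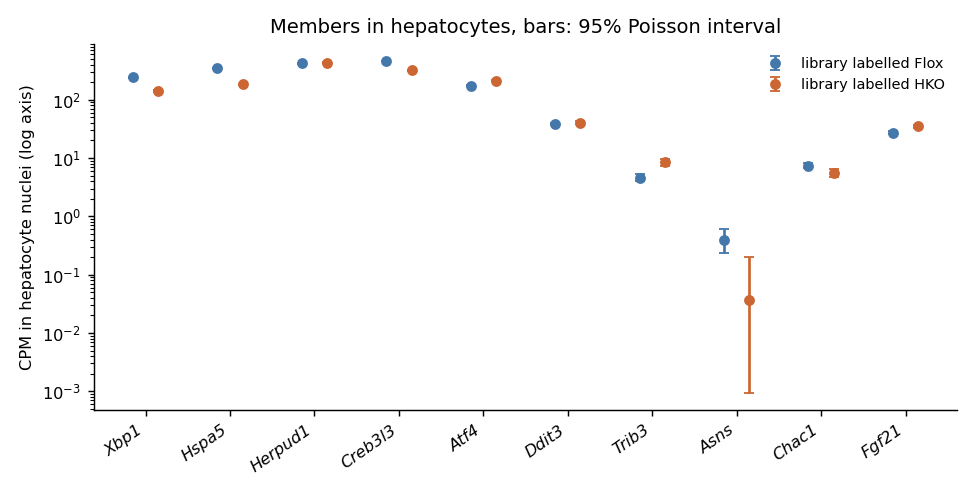
Level of each of the 10 genes in hepatocyte nuclei, as CPM on a log axis; points are the 2 libraries (blue, labelled Flox; orange, labelled HKO) and bars are exact Poisson 95% intervals. *Hspa5*, *Xbp1* and *Creb3l3* sit lower in the library labelled HKO, *Atf4*, *Trib3* and *Fgf21* sit higher, and *Herpud1* is nearly level at 421.0 and 434.0 CPM.

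Of the 10 genes, 9 reached the minimum of 50 UMIs over both libraries in hepatocytes, and 3 of these 9 were past a 1.5-fold difference, *Trib3* higher and *Xbp1* and *Hspa5* lower in the library labelled HKO. Among all 13208 genes with as many UMIs, 22.1% were past the same fold, 10.3% higher and 11.8% lower. The median log2 ratio of the 9 genes was 0.04, against −0.02 over all genes. As a set the 10 genes thus showed no common direction.

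Shares of nuclei with a UMI were compared at equal depth. After each hepatocyte was thinned at random to 3000 UMIs, which left out 206 nuclei from the library labelled Flox and 555 from the one labelled HKO, *Hspa5* was detected in 59.8% of nuclei (58.5% to 61.1%) and 39.5% (37.9% to 41.0%), where the shares before thinning were 83.5% and 57.5%. *Xbp1* was detected in 49.0% (47.7% to 50.3%) and 33.7% (32.2% to 35.2%) of the thinned nuclei. *Atf4* was detected in 39.4% (38.1% to 40.7%) and 45.0% (43.4% to 46.6%), where the shares before thinning, 68.5% and 65.3%, had the opposite order. *Trib3* was detected in 1.36% and 2.62% of thinned hepatocytes. The order of the libraries was the same for these 4 genes at 1000 UMIs. It was not for *Herpud1*, with 67.5% and 67.8% at 3000 and 33.2% and 32.4% at 1000 UMIs, nor for *Chac1*, with 2.02% and 1.28% at 3000 and 0.464% and 0.637% at 1000 UMIs, and at 1000 UMIs the intervals of the libraries overlapped for both. The highest count in 1 hepatocyte was 55 UMIs for *Hspa5*, in the library labelled Flox, and the level of *Hspa5* there without this nucleus was 344.7 CPM.

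The other genes of the 2 pathways were taken from 5 lists of 76 genes in all, 70 of which reached 50 UMIs in hepatocytes. The lists were chosen with earlier results of these data known. Counts set beside all genes therefore describe the lists and are not independent support. ER chaperones and folding enzymes were lower in the library labelled HKO as a group: 12 of 16 were past 1.5-fold lower, against 11.8% of all genes, none was past it higher, and 15 of 16 had a log2 ratio below 0. Their median log2 ratio was −0.94. Summed, the 16 genes had 1667 CPM in the library labelled Flox and 1069 CPM in the one labelled HKO, a ratio of 0.641 (0.633 to 0.650). The lowest were *Sdf2l1*, a BiP cofactor, with 13.3 and 2.60 CPM and a ratio of 0.195 (0.151 to 0.25), *Manf*, a secreted ER-resident factor, with 68.5 and 23.9 CPM and a ratio of 0.350 (0.321 to 0.380), and *Creld2*, with 35.5 and 14.6 CPM and a ratio of 0.411 (0.367 to 0.459). *Calr*, the lectin chaperone calreticulin, had 126.8 and 64.8 CPM, and *P4hb*, protein disulfide isomerase, had 138.5 and 78.4 CPM. At the other end of the list stood the ER oxidase gene *Ero1a*, with 18.4 and 21.1 CPM and a ratio of 1.15 (1.03 to 1.28), the calnexin gene *Canx*, with a ratio of 0.886 (0.844 to 0.930), and *Dnajc3*, a BiP cochaperone and PERK inhibitor, with a ratio of 0.843 (0.807 to 0.881).

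Of 12 genes of ER-associated degradation, 3 were past 1.5-fold lower in the library labelled HKO and none higher, where 11.8% and 10.3% of all genes were, and the median log2 ratio was −0.26. *Derl3*, a derlin of the retrotranslocation channel, was the lowest, with 7.36 CPM in the library labelled Flox and 1.03 CPM in the one labelled HKO and a ratio of 0.139 (0.0913 to 0.205). The ubiquitin ligase gene *Syvn1* had 154.2 and 83.7 CPM, a ratio of 0.543 (0.518 to 0.569), and the lectin gene *Os9* a ratio of 0.647 (0.603 to 0.693). *Derl2* stood at the other end with 118.9 and 149.2 CPM and a ratio of 1.25 (1.20 to 1.31), followed by *Edem3* with 1.05 and *Derl1* with 1.03. The derlins thus spanned the whole range of the list.

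None of 9 genes for the stress sensors and eIF2α control was past 1.5-fold, where 22.1% of all genes were. The log2 ratios of the 9 lay between −0.18 (*Ppp1r15a*, an eIF2α phosphatase subunit) and 0.10 (*Eif2ak2*, the kinase PKR). *Ern1*, encoding IRE1α, had 66.6 and 69.4 CPM, and *Eif2ak3*, encoding PERK, had 20.4 and 21.7 CPM, with intervals of both ratios that held 1. *Eif2ak1*, the heme-regulated kinase gene, had a ratio of 0.891 (0.816 to 0.972), and *Atf6b* one of 0.892 (0.789 to 1.01). The transcripts of the sensors thus differed little between the libraries while those of 12 of 16 chaperones were past 1.5-fold.

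Of 31 genes associated with ATF4, 25 reached 50 UMIs, of which 6 were past 1.5-fold higher in the library labelled HKO, where 10.3% of all genes were, and 1 was past it lower, where 11.8% were. The median log2 ratio of the 25 was 0.02. The very low density lipoprotein receptor gene *Vldlr* was the highest, with 4.64 and 24.4 CPM and a ratio of 5.26 (4.51 to 6.17), and was strongly pericentral, as described below. *Ddit4*, an inhibitor of mTORC1, had 9.48 and 18.8 CPM, a ratio of 1.99 (1.74 to 2.26), and the cysteinyl-tRNA synthetase gene *Cars* a ratio of 1.58 (1.39 to 1.8). The other 3 past the fold were *Gpt2*, an alanine aminotransferase gene, with 320.3 and 486.8 CPM and a ratio of 1.52 (1.48 to 1.56), and the rarer transcription regulator genes *Nupr1*, with 51 and 116 UMIs and a ratio of 3.84 (2.74 to 5.45), and *Atf3*, with 66 and 70 UMIs and a ratio of 1.79 (1.26 to 2.55). The gene past it lower was *Mthfd2*, a mitochondrial folate enzyme gene, with 131 and 48 UMIs and a ratio of 0.619 (0.435 to 0.867). At the low end of the well-counted genes were *Eif4ebp1*, a translation repressor gene, with a ratio of 0.680 (0.587 to 0.787), the stress hormone gene *Gdf15*, with 107.0 and 84.3 CPM, and the transcription factor gene *Cebpb*, with 748.6 and 618.8 CPM. Of the serine synthesis genes of the list, *Psat1* had 0.130 and 0.366 CPM and *Phgdh* 0.0217 and 0.0733 CPM, close to undetected as *Asns* was, while *Psph* had 4.34 and 4.18 CPM.

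Of 8 genes associated with CREBH, 1 was past 1.5-fold, where 22.1% of all genes were. *Apoa4*, an apolipoprotein gene, had 116.1 CPM in the library labelled Flox and 198.2 CPM in the one labelled HKO, a ratio of 1.71 (1.64 to 1.77), although *Creb3l3* itself was lower there. *G6pc*, the last enzyme of glucose production, had a ratio of 1.39 (1.36 to 1.43) and *Apoa5* one of 1.25 (1.22 to 1.27), while the lipid droplet gene *Cideb*, the lipoprotein lipase cofactor gene *Apoc2* and *Cidec* had ratios of 0.769, 0.860 and 0.952. The median log2 ratio of the 8 genes was 0.26.

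**Figure D2:**
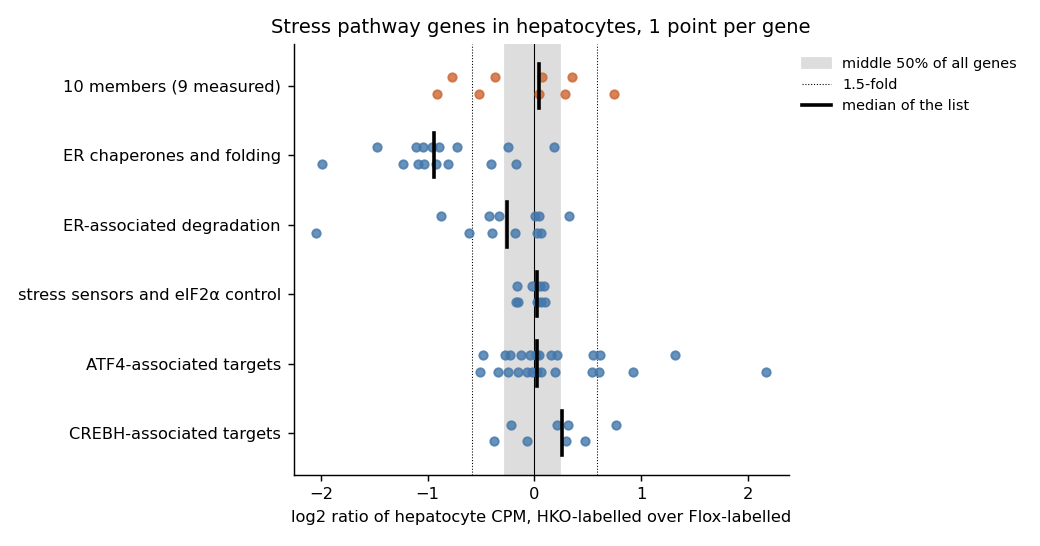
Log2 ratio of hepatocyte CPM, library labelled HKO over library labelled Flox, for each gene with at least 50 UMIs (points, offset vertically for legibility), the 9 measured members in orange and the 5 further lists in blue; black bars are list medians, the gray band holds the middle 50% of all 13208 genes and dotted lines mark 1.5-fold. Chaperones lie to the left with a median of −0.94, sensors cluster at 0, and ATF4-associated genes spread to both sides.

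Promoters of the chaperone side are known for the ER stress response element (ERSE), to which ATF6 and XBP1 bind with NF-Y, and for its variant ERSE-II. The windows searched were RefSeq's (GRCm38.p6), from 250 bases before to 50 bases after each transcript start, and all 10 genes had one. ERSE was searched as CCAAT, then any 9 bases, then CCACG, and ERSE-II as ATTGG, then any 1 base, then CCACG, on both strands; they share the CCACG end but did not overlap in any member. The ERSE letters were in 0.119% of all 32851 windows and those of ERSE-II in 0.0365%. Counted by gene, these shares were 0.137% and 0.0444% of 27025 genes with a window. Among the 10 genes, ERSE was found for *Hspa5* alone, ending 47 bases before its start, and ERSE-II for *Herpud1* alone. Both stretches are shown because the pair had the same kind of element and different ratios between the libraries. They are given 5′ to 3′ along the gene, with the matches in capitals; the stretch of *Hspa5* is kept to 29 bases because an alternative first exon of GENCODE covers it.
Hspa5, chr2:34772020-34772048, plus strand, with ERSE in capitals: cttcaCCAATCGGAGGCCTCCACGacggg
Herpud1, chr8:94386277-94386427, plus strand, with an ATF4 composite site and then ERSE-II in capitals: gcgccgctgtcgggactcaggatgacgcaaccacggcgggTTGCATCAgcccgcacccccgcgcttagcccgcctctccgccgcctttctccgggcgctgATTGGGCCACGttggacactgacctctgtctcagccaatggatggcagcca
*Herpud1* alone of the 10 held both kinds of element, and its level was nearly equal in the libraries. Of the 14 chaperone and folding genes with a window, 7 held ERSE: *Hsp90b1*, *Calr*, *Canx*, *Pdia6*, *Dnajc3*, *Creld2* and *Ero1b*. Their ratios in hepatocytes ran from 0.411 (*Creld2*) to 0.886 (*Canx*), so genes with these letters stood at both ends of the list. In ER-associated degradation, 2 of 10 genes with a window held ERSE, *Syvn1* and *Derl3*, which were the ones with the lowest ratios.

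The amino acid response element through which ATF4 acts with C/EBP factors was searched as TGATGNAA on both strands. Its letters were in 3.97% of all windows and, counted by gene, for 4.51% of 27025 genes with a window. These letters were present for 5 of the 10 genes, *Herpud1*, *Trib3*, *Asns*, *Chac1* and *Fgf21*. They were present for 9 of 25 ATF4-associated genes with a window and for none of 14 chaperone genes. The former list was picked as targets of ATF4, so its share is not independent of the element. For the latter, none of 14 is near the 4.51% of all genes. The stretches of the 4 genes downstream of ATF4 are shown because their ratios between the libraries differed although they held the same element. Matches are in capitals and read TTNCATCA where the element lies on the opposite strand; those of *Trib3* and *Asns* lie in an annotated exon and are kept to 30 bases.
Fgf21, chr7:45615582-45615669, minus strand: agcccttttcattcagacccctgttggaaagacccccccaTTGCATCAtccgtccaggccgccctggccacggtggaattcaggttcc
Chac1, chr2:119351009-119351096, plus strand: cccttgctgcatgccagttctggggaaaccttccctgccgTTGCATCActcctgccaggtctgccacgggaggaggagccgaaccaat
Trib3, chr2:152344028-152344057, minus strand: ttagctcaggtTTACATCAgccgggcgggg
Asns, chr6:7693214-7693243, minus strand: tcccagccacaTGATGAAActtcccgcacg
*Trib3* and *Fgf21* had ratios of 1.82 and 1.28 in hepatocytes, *Chac1* had 0.743, and *Asns* was barely detected. A match is a description of letters and says nothing of binding in these livers. *Xbp1*, *Creb3l3*, *Atf4* and *Ddit3* held none of these letters in their windows.

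Across cell types, *Xbp1* and *Hspa5* were highest in plasma cells, the antibody-secreting cells that depend on XBP1. Plasma cells had 2143 CPM of *Xbp1* (1563 to 2868; 45 UMIs in 12 nuclei) in the library labelled Flox and 2218 CPM (1792 to 2714; 94 UMIs in 25 nuclei) in the one labelled HKO, against 243.1 and 141.8 CPM in hepatocytes. *Xbp1* was detected in 11 of 12 and in 21 of 25 of these nuclei. *Hspa5* had 2191 CPM (1604 to 2922) and 2761 CPM (2283 to 3309) in the same nuclei. Single nuclei carried much of these sums. One nucleus of the library labelled HKO held 59 of the 117 *Hspa5* UMIs, and without it the level was 1524 CPM (1157 to 1970). One nucleus of the library labelled Flox held 25 of the 45 *Xbp1* UMIs, and without it the level was 1110 CPM (678 to 1714). Either value without that nucleus was still above those of all other types with 20 or more nuclei in both libraries. B cells, by contrast, had 1 *Xbp1* UMI in each library.

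*Hspa5* was lower in the library labelled HKO in hepatic stellate cells (HSCs), macrophages, cholangiocytes, endothelial cells and T cells as well as in hepatocytes. HSCs had 620.1 CPM (580.2 to 662.0) and 258.7 CPM (235.1 to 284.0), which gave a ratio of 0.417 (0.371 to 0.468). Macrophages had 667.2 and 386.6 CPM, a ratio of 0.579 (0.524 to 0.641), and cholangiocytes, with 82 and 400 nuclei, had 444.3 and 135.5 CPM, a ratio of 0.305 (0.219 to 0.425). All 3 ratios were below 1 by more than counting error, and the levels of HSCs and macrophages were above those of hepatocytes in the same library. Endothelial cells had 397.4 and 298.4 CPM, a ratio of 0.751 (0.650 to 0.867), and T cells 740.1 and 388.6 CPM, a ratio of 0.525 (0.358 to 0.763). In plasma cells the ratio of 1.26 (0.889 to 1.81) held 1. The libraries differed in depth in these types too. The median of HSCs was 1787 UMIs for the library labelled Flox against 1419.5 for the one labelled HKO. With nuclei of at least 2000 UMIs only, an alternative added after the data were seen, the ratio of *Hspa5* was 0.340 (0.273 to 0.421) in HSCs, 0.561 (0.474 to 0.660) in macrophages, 0.311 (0.164 to 0.577) in cholangiocytes and 0.683 (0.413 to 1.09) in endothelial cells, of which 80 and 32 nuclei remained. A difference between pools, animals or preparations cannot be told apart from one between the genotypes.

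*Xbp1* was lower in the library labelled HKO in HSCs, with 189.7 and 126.1 CPM and a ratio of 0.665 (0.554 to 0.798), in macrophages, with 144.7 and 101.8 CPM and a ratio of 0.703 (0.571 to 0.868), and in endothelial cells, with 117.2 and 77.3 CPM and a ratio of 0.659 (0.498 to 0.870). In cholangiocytes the ratio of 0.836 (0.470 to 1.57) held 1. The 4 types with at least 500 nuclei in each library had both *Hspa5* and *Xbp1* lower in the library labelled HKO. Taken over all nuclei, these differences were beyond counting error. With nuclei of at least 2000 UMIs only, the *Xbp1* ratio was 0.582 (0.560 to 0.603) in hepatocytes and 0.605 (0.424 to 0.852) in HSCs. In macrophages it was 0.738 (0.525 to 1.03) and in endothelial cells 0.552 (0.165 to 1.47), intervals that held 1. Hepatocyte markers were found in endothelial nuclei at 22.8% and 20.0% of their level in hepatocytes, and *Xbp1* at the same shares of its hepatocyte level would be 55.5 and 28.4 CPM, a gap between the libraries that is most of the one measured there. Less these amounts, an alternative added after the data were seen, the ratio of *Xbp1* was 0.793 in endothelial cells, 0.708 in HSCs and 0.753 in macrophages, and that of *Hspa5* was 0.822, 0.411 and 0.585. All 6 stayed below 1, and no interval was computed for them. A sum over nuclei does not separate fewer nuclei with a transcript from fewer transcripts per nucleus.

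The same direction was seen for the ER chaperone list outside hepatocytes. In HSCs 10 of 14 measured genes were past 1.5-fold lower, with a median log2 ratio of −0.73, in macrophages 8 of 16, with −0.58, and in cholangiocytes 7 of 7, with −0.89, and no chaperone gene was past 1.5-fold higher in any of these types. Among all genes of these types 11.8%, 11.9% and 10.8% were past 1.5-fold lower. In endothelial cells none of 14 was past the fold, where 9.4% of all genes were past it lower, yet all 14 had a log2 ratio below 0, with a median of −0.29 against −0.06 over all genes. For *Manf*, HSCs had 96.6 and 53.4 CPM, and macrophages 85.0 and 45.2 CPM, with ratios of 0.553 (0.420 to 0.725) and 0.532 (0.395 to 0.716). *Dnajc3* was past 1.5-fold in none of hepatocytes, HSCs and endothelial cells. Its ratios there were 0.843 (0.807 to 0.881), 0.677 (0.566 to 0.809) and 0.720 (0.584 to 0.887). *Sdf2l1*, which had the lowest ratio of the list in hepatocytes, had macrophage levels of 53.8 and 25.2 CPM and there a ratio of 0.468 (0.316 to 0.689), and too few UMIs in HSCs to tell, with 13 and 14. Summed over the 16 genes, the ratio was 0.583 (0.554 to 0.613) in HSCs, 0.640 (0.610 to 0.671) in macrophages, 0.541 (0.476 to 0.615) in cholangiocytes and 0.837 (0.791 to 0.887) in endothelial cells. With nuclei of at least 2000 UMIs only, the sum's ratio was 0.498 (0.454 to 0.545) in HSCs and 0.646 (0.598 to 0.698) in macrophages. It was 0.553 (0.441 to 0.693) in cholangiocytes and 0.886 (0.748 to 1.05) in endothelial cells, where the interval held 1. Hepatocyte background was not taken off these sums.

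**Figure D3:**
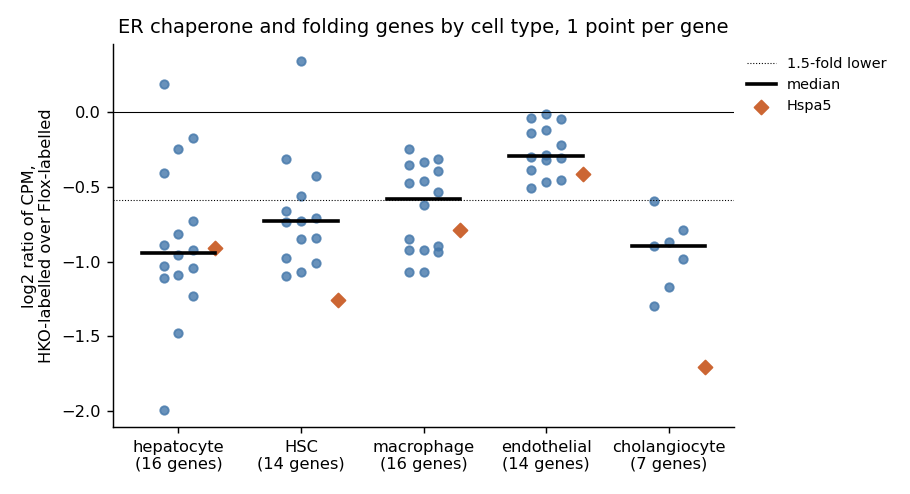
Log2 ratio of CPM, library labelled HKO over library labelled Flox, for the ER chaperone and folding genes with at least 50 UMIs in each cell type (blue points, spread sideways for legibility), with the list median (black bar) and *Hspa5* (orange diamond); the dotted line marks 1.5-fold lower. Medians are −0.94 in hepatocytes, −0.73 in HSCs, −0.58 in macrophages, −0.29 in endothelial cells and −0.89 in cholangiocytes.

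Of the 10 genes, 6 were measured with 50 UMIs or more in HSCs and in macrophages, 5 in endothelial cells and 4 in cholangiocytes. Past 1.5-fold were 3 of 6 in HSCs (*Xbp1* and *Hspa5* lower, *Ddit3* higher in the library labelled HKO), where 17.8% of all genes were past it and 5.92% past it higher, and 1 of 6 in macrophages (*Hspa5* lower), where 17.4% were and 5.45% higher. In endothelial cells 2 of 5 were past it (*Xbp1* lower, *Ddit3* higher), against 14.7% of all genes (5.33% higher), and in cholangiocytes 3 of 4 (*Hspa5* and *Herpud1* lower, *Atf4* higher), against 24.3% (13.5% higher). *Ddit3* in HSCs rested on 26 and 54 UMIs, with 17.9 and 31.7 CPM and a ratio of 1.77 (1.09 to 2.94), while in endothelial cells the interval of its ratio of 1.51 (0.862 to 2.70) held 1. For *Atf4* in cholangiocytes, with 8 and 63 UMIs, the ratio of 2.03 (0.967 to 4.89) held 1 as well, as did that of *Herpud1*, 0.627 (0.388 to 1.04). *Atf4* was within counting error in each of these types, and *Ddit3* was in macrophages and endothelial cells but not in HSCs. Of the further ATF4-associated genes with 50 UMIs, 2 of 18 were past 1.5-fold higher and 5 lower in macrophages. In HSCs 1 of 8 was past it higher and 2 lower, and in endothelial cells 2 of 10 higher and none lower. Among all genes of these types, 11.9%, 11.8% and 9.4% were past it lower.

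The genes differed in how they were spread over cell types. *Atf4* was broad: in the library labelled Flox it had 173.4 CPM in hepatocytes, 137.3 in HSCs, 130.4 in macrophages and 125.0 in endothelial cells, and the last 3 did not differ beyond their counting intervals. Of the types with at least 20 *Ddit3* UMIs in each library, macrophages had the most, with 53.8 CPM (41.5 to 68.8) and 58.1 CPM (47.9 to 69.8) against 38.0 and 40.1 CPM in hepatocytes. B cells and plasma cells had at most 4 *Ddit3* UMIs a library, and cholangiocytes of the library labelled Flox had 0, which allows up to 19.0 CPM. *Herpud1* was high in hepatocytes and in plasma cells, with 666.8 CPM (364.5 to 1119) and 330.4 CPM (180.6 to 554.3) in the latter, which rest on 14 UMIs in each library, and lay between 66.3 and 90.3 CPM in HSCs, macrophages and endothelial cells. The latter values were 15.3% to 20.8% of its level in hepatocytes, close to the 15.8% to 22.8% at which hepatocyte markers were found there, so that expression in these types cannot be told apart from background. *Creb3l3* and *Fgf21* were hepatocyte genes. *Creb3l3* in endothelial cells, macrophages and HSCs was at 3.82% to 10.0% of its level in hepatocytes, below the share of hepatocyte marker UMIs found there. *Fgf21* had between 1 and 8 UMIs in each of HSCs, macrophages and endothelial cells of either library. *Trib3* and *Chac1* were found in hepatocytes and, with 6 to 9 UMIs a library, in endothelial cells, whereas HSCs had at most 1 UMI of either, and the 0 UMIs of *Chac1* in HSCs of the library labelled HKO allow up to 1.76 CPM.

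**Figure D4:**
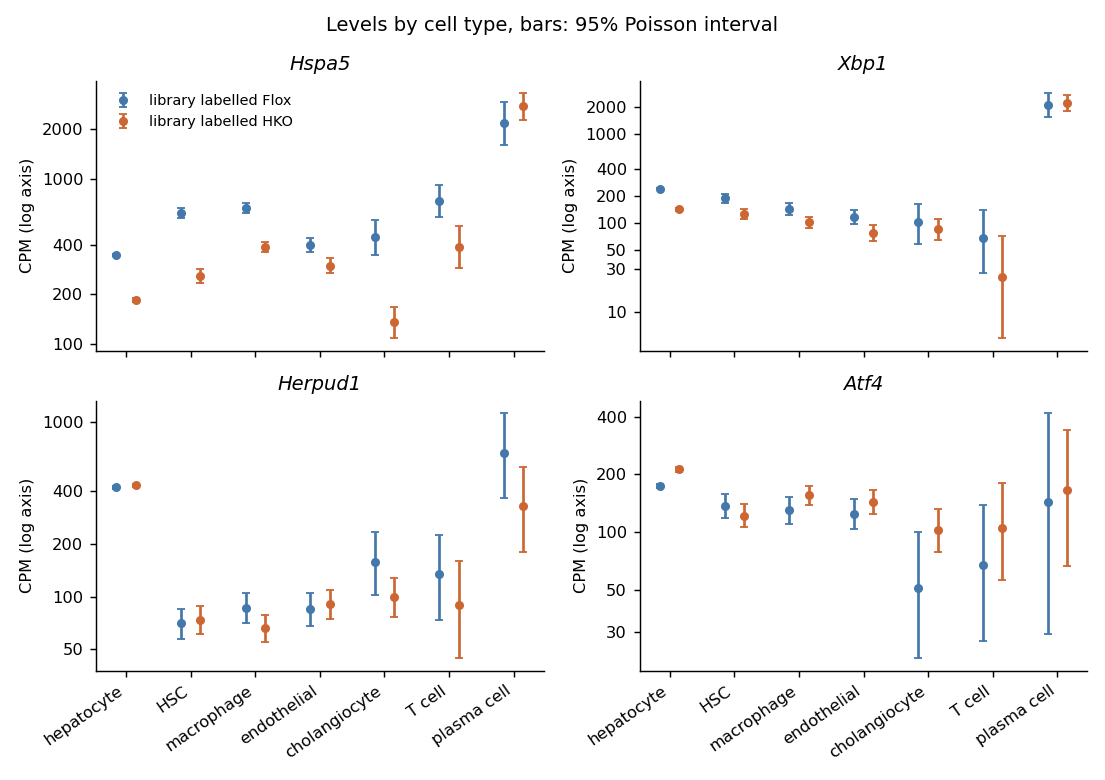
Levels of *Hspa5*, *Xbp1*, *Herpud1* and *Atf4* in 7 cell types of both libraries (blue, labelled Flox; orange, labelled HKO), as CPM on log axes with exact Poisson 95% intervals. *Hspa5* and *Xbp1* peak in plasma cells, where *Xbp1* had 2143 and 2218 CPM; the library labelled HKO lies lower for *Hspa5* in the 6 other types shown; *Atf4* varies least between types.

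Genes with the most similar pattern were sought over 16 profiles, which were 8 cell types with at least 20 nuclei in each of both libraries, by Pearson's r of log2(CPM + 1) among 10689 genes. Profiles of 1 library share its depth and preparation, and the r values are descriptions. Each profile counted the same whatever its UMIs, so the neighbors of rare genes can rest on a few counts. The highest *Ddit3* profile, B cells of the library labelled Flox at 86.2 CPM, rested on 4 UMIs. That of *Chac1*, 21.5 CPM in the same nuclei, rested on 1 UMI. The gene most like *Hspa5* was *Hsp90b1* (r = 0.84), the ER chaperone GRP94, followed by *Wasf2* (0.82) and *Calr* (0.81), so 2 of its 3 nearest were chaperones of the ER. *Fgf21* was nearest to *Akr1d1* (0.97), *Pklr* (0.95) and *F12* (0.95), and *Creb3l3* to *Ephx2* (0.95), *Chpt1* (0.95) and *Smpd2* (0.92). *Herpud1* was nearest to *Cpox* (0.93), *Sc5d* (0.92) and *Slc25a20* (0.92). *Xbp1* was nearest to *Nek6* (0.92), *Trib1* (0.91) and *9330159M07Rik* (0.91), and *Atf4* to *Cwf19l1* (0.81), *Vps50* (0.80) and *Lgr5* (0.79). *Ddit3* was nearest to *Ap2a1* (0.94), *Dmac1* (0.93) and *Eri3* (0.91), *Trib3* to *Gm10030* (0.97), *Fmo1* (0.91) and *Igfbp4* (0.89), and *Chac1* to *Gm16867* (0.85), *Slc25a37* (0.84) and *Slc6a12* (0.83).

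Hepatocytes around the central vein express *Glul* and *Slc1a2*, and nuclei in which these 2 genes made up at least 0.1% of UMIs were taken as pericentral. They were 1084 of 5852 hepatocytes (18.5%) in the library labelled Flox and 752 of 4455 (16.9%) in the one labelled HKO. Just under the limit, at 0.08% to 0.1%, lay 49 and 29 nuclei, and just over it, at 0.1% to 0.12%, lay 25 and 27. Genes that the rule did not use followed it: the pericentral gene *Oat* was higher in pericentral nuclei by ratios of 14.5 and 18.9, and the periportal gene *Hal* lower by ratios of 0.0234 in both libraries.

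Most of the 10 genes varied little with zone. None of the 9 measured genes was past 1.5-fold in the library labelled Flox, where 15.1% of all 12428 genes were (6.02% higher and 9.11% lower in pericentral nuclei), and 2 of 9 were in the one labelled HKO, *Fgf21* higher and *Chac1* lower in pericentral nuclei, where 14.6% of 11768 genes were (5.53% higher and 9.1% lower). *Hspa5* had 336.6 CPM in pericentral and 347.5 CPM in other hepatocytes of the library labelled Flox, a ratio of 0.968 (0.927 to 1.01), and 197.0 and 181.3 CPM in the one labelled HKO, a ratio of 1.09 (1.01 to 1.17). *Herpud1* was lower in pericentral nuclei of both libraries, with 324.6 against 438.3 CPM, a ratio of 0.741 (0.709 to 0.774), and 379.5 against 443.2 CPM, a ratio of 0.856 (0.810 to 0.904). *Creb3l3* was lower there as well, with ratios of 0.838 (0.805 to 0.872) and 0.932 (0.876 to 0.990). These were modest slopes with 1 direction in both libraries. *Atf4* went the other way in the library labelled Flox, with 205.1 against 167.7 CPM and a ratio of 1.22 (1.15 to 1.30), while the interval of its ratio of 1.06 (0.985 to 1.14) in the one labelled HKO held 1. *Chac1* was lower in pericentral nuclei, with ratios of 0.696 (0.483 to 0.977) and 0.466 (0.227 to 0.859), the latter from 11 pericentral UMIs; with nuclei thinned to 1000 UMIs its log2 ratio in the library labelled Flox had the opposite sign, 0.35. *Xbp1*, *Ddit3* and *Trib3* had ratios between 0.886 and 1.03 in both libraries.

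For zone ratios on opposite sides of 1 in the libraries, with both intervals leaving out 1, no share over all genes is given here. *Fgf21* was the only one of the 9 genes with such ratios. In the library labelled Flox it had 21.9 CPM (18.6 to 25.6) in pericentral and 28.2 CPM (26.5 to 29.9) in other hepatocytes, a ratio of 0.776 (0.652 to 0.920). In the library labelled HKO it had 50.5 CPM (43.7 to 58.0) in pericentral and 32.3 CPM (30.02 to 34.7) in other hepatocytes, a ratio of 1.56 (1.33 to 1.83). Its UMIs were spread over many nuclei: 122 of 1084 pericentral nuclei (11.3%) held at least 1 in the library labelled Flox, as did 131 of 752 (17.4%) in the one labelled HKO, and the highest count in 1 pericentral nucleus was 7 and 8 UMIs. Without the nucleus with the most *Fgf21* UMIs in each zone, the ratios were 0.754 (0.630 to 0.896) and 1.52 (1.29 to 1.79). The ratio in the library labelled Flox was 0.918 with an interval that held 1 when zones were set by lists of other pericentral and periportal genes, where the ratio in the one labelled HKO was 1.54. With nuclei thinned to 1000 UMIs the ratios were 1.03 and 1.72, so the direction in the library labelled Flox depended on how nuclei were taken, and that in the library labelled HKO did not under these alternatives. Between the libraries, *Fgf21* had a ratio of 2.31 (1.86 to 2.86) in pericentral and 1.15 (1.04 to 1.26) in other hepatocytes. *Hspa5* and *Xbp1* were lower in the library labelled HKO in both zones, with ratios of 0.585 and 0.632 in pericentral and 0.522 and 0.576 in other hepatocytes, and *Trib3* was higher in both, with 1.89 and 1.81.

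**Figure D5:**
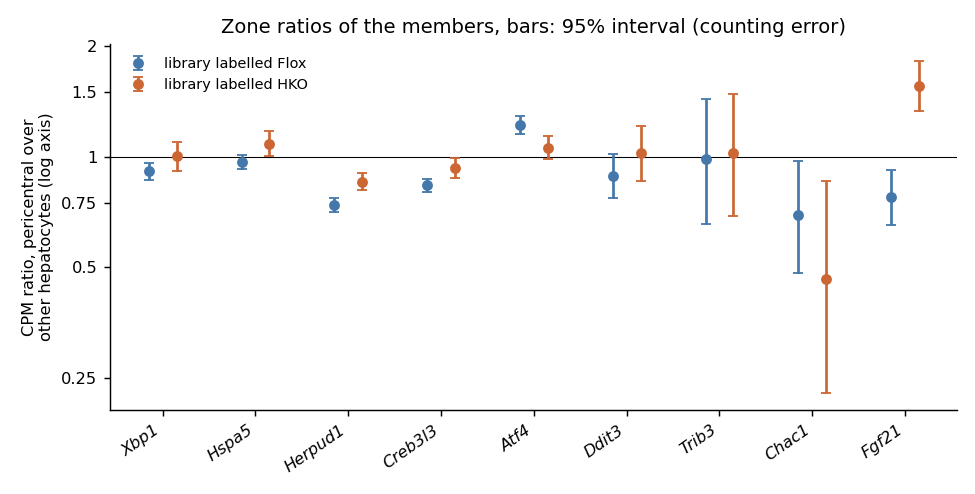
Ratio of CPM in pericentral over other hepatocytes for the 9 measured genes (log axis; blue, library labelled Flox; orange, library labelled HKO), with 95% intervals from counting error. *Fgf21* lies below 1 in the library labelled Flox (0.776) and above 1 in the one labelled HKO (1.56), while *Herpud1* and *Creb3l3* lie below 1 in both.

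Among the genes named from the further lists, *Vldlr* was the most zoned. Its pericentral ratio was 35.4 in the library labelled Flox and 9.04 in the one labelled HKO. *Apoa4* was lower in pericentral nuclei of the library labelled Flox, with a ratio of 0.416, and had 1.07 in the one labelled HKO, and *Apoa5* had 0.6 and 0.658. None of the 16 chaperone and folding genes was past 1.5-fold between zones. Among all genes, 15.1% and 14.6% were past it in the libraries labelled Flox and HKO. The pericentral ratios of the 16 ran from 0.705 for *Dnajb11* in the library labelled Flox to 1.45 for *Sdf2l1* in the one labelled HKO.

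Within the hepatocytes of a library, few pairs of the genes were higher in the same nuclei of both libraries. Nuclei thinned to 3000 UMIs with a UMI of *Hspa5* had more *Xbp1* than those without, with 264.2 against 212.0 CPM in the library labelled Flox, a ratio of 1.25 (1.17 to 1.33), and 157.9 against 139.8 CPM in the one labelled HKO, a ratio of 1.13 (1.02 to 1.24). *Herpud1* was higher in the *Hspa5*-positive nuclei of the library labelled HKO, with a ratio of 1.14 (1.08 to 1.21), but had 0.977 (0.933 to 1.02) in the library labelled Flox. *Atf4* did not differ beyond counting error between the same nuclei, with ratios of 0.996 (0.926 to 1.07) and 0.983 (0.906 to 1.07). Nuclei with a UMI of *Herpud1* had less *Xbp1* than those without in both libraries. The ratios were 0.920 (0.862 to 0.982) for the library labelled Flox and 0.884 (0.799 to 0.978) for the one labelled HKO. *Fgf21*-positive nuclei, 416 of 5646 and 348 of 3900, had ratios of *Atf4* of 0.989 (0.857 to 1.14) and 1.11 (0.969 to 1.27) and of *Hspa5* of 0.957 (0.865 to 1.06) and 1.11 (0.962 to 1.28), all with intervals that held 1. Their ratios of *Xbp1* had opposite directions, with 0.861 (0.757 to 0.976) for the library labelled Flox against 1.21 (1.03 to 1.41) in the one labelled HKO, which was not tested. The other stress hormone gene, *Gdf15*, was higher in them, with 173.9 against 102.5 CPM in the library labelled Flox, a ratio of 1.70 (1.47 to 1.96), and 104.4 against 83.8 CPM in the one labelled HKO, a ratio of 1.25 (1.01 to 1.52). *Fgf21*-positive hepatocytes thus had more *Gdf15* in both libraries and no more *Atf4* beyond counting error in either.

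Nuclei with a UMI of *Cdkn1a*, the cell cycle inhibitor gene p21 that serves as a marker of senescence, were 157 of 5646 thinned hepatocytes in the library labelled Flox and 352 of 3900 in the one labelled HKO. *Herpud1* was higher in them in both libraries, with 494.7 against 426.5 CPM, a ratio of 1.16 (1.01 to 1.32), and 520.8 against 422.9 CPM, a ratio of 1.23 (1.13 to 1.35). *Hspa5* and *Xbp1* were not, with ratios of 0.992 (0.845 to 1.16) and 0.861 (0.698 to 1.05) for the library labelled Flox, and 1.01 (0.867 to 1.17) and 0.867 (0.722 to 1.03) for the one labelled HKO. *Fgf21* had 57.3 against 28.2 CPM in the library labelled Flox, a ratio of 2.03 (1.33 to 3.0) from 27 UMIs, and 41.7 against 36.8 CPM in the one labelled HKO, a ratio of 1.13 (0.809 to 1.55). *Atf4* was lower in them in the library labelled Flox, with a ratio of 0.753 (0.577 to 0.966), while the interval of its ratio of 0.929 (0.802 to 1.07) in the one labelled HKO held 1. *Gdf15* was higher in them, with ratios of 1.64 (1.30 to 2.05) for the library labelled Flox and 2.55 (2.17 to 2.97) for the one labelled HKO. Nuclei are not replicates, so these ratios describe the 2 pools.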

How the data were processed

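The authors deposited raw UMI counts per gene and barcode for 1 library per genotype, made with Cell Ranger 8.0.1 on GRCm38 with intronic reads excluded. Raw counts carried no normalization. Nuclei with at least 300 genes were kept, and Scrublet (scanpy 1.11.5; 0.8% expected per 1000 barcodes) removed 701 and 920 barcodes as likely doublets. A nucleus took the type whose markers had at least 2 UMIs, 0.1% of its UMIs and 3 times the UMIs of the next type, with hepatocyte markers under 0.6%, and was a hepatocyte when no such type was reached and hepatocyte markers had at least 5 UMIs and 0.4%; 27 and 323 barcodes lay near that limit (0.3% to 0.5%). These limits were set on these data. Clustering gave the same type to 95.7% and 96.9% of nuclei. UMIs were summed per type and library and divided by the total (CPM). Intervals were exact Poisson for CPM, exact conditional binomial for ratios and Clopper-Pearson for shares. Log2 ratios carry a pseudocount of 1 CPM, ratios carry none. Genes needed 50 UMIs over both groups compared; past means a ratio of 1.5 or its inverse. A count of 0 was given the limit of 3 counts. Calculations used Python 3.11.15 and scipy 1.17.1, and edgeR 4.0.16 for TMM factors only; functions were tested on simulated data.

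All 10 genes are named. Of each further list, up to 3 genes at either end of the hepatocyte log2 ratio with at least 200 UMIs are named; *Calr*, *P4hb*, *Dnajb11*, *Psat1*, *Phgdh*, *Psph*, *Gpt2*, *Nupr1*, *Atf3* and *Mthfd2* were added after their values were seen. Splits of hepatocytes by a UMI of *Hspa5*, *Herpud1*, *Fgf21* or *Cdkn1a* were also added then. Splits by *Atf4* and *Ddit3* were run as well and are not described. Likeness used genes with 500 UMIs and members with 200. *Ero1a* and *Ero1b* carry older symbols in the matrices and were matched through RefSeq synonyms. The 10 genes and the lists were chosen with earlier results of these data known.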

Additional observations from a re-analysis of the deposited data

Results flagged for a closer look

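The pericentral over other ratio of *Fgf21* CPM in hepatocytes was 0.776 in the library labelled Flox and 1.56 in the library labelled HKO. It stood out because the same contrast between zones had opposite directions in the libraries, each beyond counting error. The direction in the library labelled Flox was lost under alternatives, with a ratio of 1.03 for nuclei thinned to 1000 UMIs and of 0.918, with an interval that held 1, for zones set by other genes, where the library labelled HKO had 1.72 and 1.54. With 1 library per group the difference itself was not tested. It was noticed among 9 genes compared, and no share over all genes is given for it.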

How the results depend on the processing

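The counts of 3 members and 12 chaperone genes past 1.5-fold in hepatocytes stayed within 1.5 times under each alternative run (typing by clusters, doublets kept, at least 500 genes per nucleus, TMM or median-of-ratios factors, totals without *Malat1* and mitochondrial genes, nuclei with at least 3000 UMIs, nuclei thinned to 1000 UMIs, and other minimums of UMIs). The chaperone count was 12 in all of them; running them on it was decided after the data were seen. The members' median log2 ratio went from 0.04 to −0.11 with nuclei thinned to 1000 UMIs and to −0.16 with no minimum of UMIs, where fewer and more genes entered; it has no stable sign. The zone count of the library labelled Flox went from 0 to 1 with typing by clusters and with no minimum. That of the library labelled HKO went from 2 to 1 with doublets kept, thinned nuclei, a minimum of 200 UMIs, or zones by other gene lists. Of 72 member ratios between the libraries 69 stayed within their intervals and 3 moved, none changing sign; of 198 zone ratios 183 stayed and 15 moved. Signs of zone ratios near 0 varied, and *Chac1* in the library labelled Flox went from −0.45 to 0.35 (log2) with thinned nuclei. *Fgf21* in the library labelled Flox ranged from −0.42 to 0.04 (log2), the highest with thinned nuclei, and in the one labelled HKO from 0.55 to 0.76. The causes were not tested. *Trib3* rests on 441 UMIs, *Chac1* on 491. No paired analysis was possible because each group had 1 library, and no library could be left out.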
